A study of Mus musculus with 6 samples.

Results

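The genes described here are 29 mouse genes of lipid synthesis, found by their symbols among the 32285 genes of each count matrix. They comprise 18 genes of the cholesterol branch, 7 genes of the fatty acid branch and 4 genes of regulation and sterol transfer (Srebf1, Srebf2, Insig1 and Stard4). All 29 symbols were found once. The list was taken as given, and it was chosen with earlier results of these data known.

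Cholesterol is built in the cytosol and endoplasmic reticulum from acetyl-CoA, first into mevalonate and isoprenoids, then into squalene, and finally into a ring that is trimmed and reduced to the sterol. Fatty acid synthesis starts from the same acetyl-CoA, which Acly makes from citrate and Acss2 from acetate, and runs through Acaca, Fasn, the elongase Elovl6 and the desaturases Scd1 and Scd2. The SREBP transcription factors, encoded by Srebf1 and Srebf2, switch on genes of both branches when membrane sterol is low, and Insig1 protein holds them back when sterol is high. The visceral endoderm, which surrounds the early embryo, takes up maternal nutrients and makes lipoproteins.

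RNA of single cells was counted in whole mouse embryos at 6 stages between E3.5 and E5.5, with 1 droplet library per stage. Every embryo had a B6SJLF1/J mother and a B6CBAF1/J father, and the labels give no other genotype or treatment beyond superovulation at the earliest stages. The 2 earliest stages were flushed from superovulated females of 4 weeks, and later embryos were dissected after natural mating of females of 7 weeks. Cells went through a 20 µm filter at every stage except the 3 from E4.75 to E5.25. The sources used here do not say how many embryos went into a library, so each stage counts as 1 pooled sample. No stage comparison therefore has a test, a replicate error or a p-value. The intervals of levels and ratios below cover counting error only. Those of medians are order statistics over the genes of a branch, so they cover spread between genes, taken as independent. Neither kind stands in for a test of stages or lineages. Stage cannot be told apart from collection, female age and filter between E4.5 and E4.75, or from the filter between E5.25 and E5.5. The stages from E4.75 to E5.25 were collected alike.

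The filters kept 20817 of 42328 barcodes, from 88 cells at E3.5 to 8102 at E5.5. The median depth ran from 5104 UMIs per cell at E5.5 to 31090 at E4.75, and between 0 and 11 cell barcodes were shared by any pair of libraries. The E5.5 library stood apart, since 68.1% of its barcodes held fewer than 1500 genes. Cells were put in 3 lineages from clusters named by marker genes: epiblast-like cells, endoderm-like cells with parietal endoderm-like cells, and trophoblast-like cells with giant cell-like cells. Summed epiblast markers stood at 1809 to 3259 CPM (UMIs per 1000000) in the epiblast, and endoderm markers at 10142 to 16044 CPM in the endoderm. Trophoblast markers stood at 4057 to 5746 CPM in the trophoblast. The cluster that held most E3.5 and E4.5 trophoblast cells carried 11 trophoblast markers at 2-fold or more, but none of them was among its 10 leading genes. The same held for epiblast clusters 0 and 4, with 6 and 7 epiblast markers. At E3.5 the epiblast also held 1871 CPM of parietal endoderm markers, against 133 to 234 CPM at later stages, and their part in the E3.5 values was not tested. In order of stage the epiblast had 44, 299, 851, 1908, 1253 and 2441 cells. The trophoblast had 42, 240, 478, 1007, 1129 and 3214 cells. The endoderm had 421, 1099, 2241, 1444 and 1674 cells from E4.5, and too few at E3.5 to be summed. Levels are CPM of the summed counts of a lineage, so they are shares of its RNA and not amounts per cell. They were not scaled to gene length, and levels of different genes are not compared.

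Promoter sequences are shown for 3 members to give the stretch of DNA at which SREBP and its partners are known to act. RefSeq's table for GRCm38.p6 held promoters of 23 of the 29 members. Hmgcs1, the mevalonate pathway synthase, was among the members with the largest stage differences, and Fasn stands for the fatty acid branch. Ebp went against most of its branch between E4.5 and E5.5 in the epiblast and trophoblast. Each line gives the 250 bases before the start site, on the gene's own strand. Capitals mark matches on either strand to TCACNCCAC, a form of the sterol element, to CCAAT, the NF-Y box, or to GGGCGG, the SP1 box.
Hmgcs1, chr13:119690101-119690350, plus strand: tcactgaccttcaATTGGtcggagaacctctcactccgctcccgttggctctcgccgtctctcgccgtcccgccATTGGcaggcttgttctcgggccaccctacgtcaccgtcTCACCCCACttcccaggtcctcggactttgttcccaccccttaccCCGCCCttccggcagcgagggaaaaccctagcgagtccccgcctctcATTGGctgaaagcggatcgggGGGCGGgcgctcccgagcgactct
Fasn, chr11:120824548-120824797, minus strand: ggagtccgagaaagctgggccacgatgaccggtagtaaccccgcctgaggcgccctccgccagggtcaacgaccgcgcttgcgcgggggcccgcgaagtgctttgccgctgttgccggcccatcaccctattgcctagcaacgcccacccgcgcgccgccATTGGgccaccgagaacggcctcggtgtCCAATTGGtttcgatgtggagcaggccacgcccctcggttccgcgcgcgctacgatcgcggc
Ebp, chrX:8193513-8193762, minus strand: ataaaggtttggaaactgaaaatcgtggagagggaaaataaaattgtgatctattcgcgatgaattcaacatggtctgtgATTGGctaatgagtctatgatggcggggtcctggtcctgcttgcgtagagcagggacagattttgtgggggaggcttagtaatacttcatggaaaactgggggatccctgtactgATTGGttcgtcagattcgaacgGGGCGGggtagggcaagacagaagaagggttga
The Hmgcs1 stretch held 1 match to TCACNCCAC, 3 to CCAAT and 2 to GGGCGG. The Ebp stretch held no match to TCACNCCAC, 2 to CCAAT and 1 to GGGCGG. In Fasn the only matches were 3 to CCAAT, of which a pair overlap. Over the full 300-base windows of the table, TCACNCCAC was present in 1 of the 23 members and in 1.24% of all 32851 promoters. CCAAT was present in 20 members and 37.4% of all promoters, and GGGCGG in 19 members and 35.7%. A member was counted if any of its promoters matched, and Dhcr7, Pmvk and Srebf1 have several. The share of all is per promoter, so the units differ and the members' counts are favoured. A match describes letters in this window and does not show binding.

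The cholesterol branch took a different course in the epiblast than in the other lineages. Between E4.75 and E5.25, which were collected alike, its summed level went from 861 CPM (95% Poisson interval 850 to 872) to 566 CPM (557 to 574) in the epiblast. Over the same stages it went from 950 CPM (940 to 960) to 1619 CPM (1602 to 1636) in the endoderm, and from 566 CPM (556 to 576) to 965 CPM (955 to 976) in the trophoblast. E5.0 lay in between in each lineage, at 679, 1357 and 923 CPM. At E5.5 the epiblast stood at 924 CPM, the endoderm at 1138 CPM and the trophoblast at 937 CPM. In the flushed embryos of E3.5 and E4.5 the epiblast had 348 and 541 CPM and the trophoblast 674 and 444 CPM, and the E4.5 endoderm had 1063 CPM. The endoderm was thus the highest of the 3 lineages in each of the 5 libraries where it was summed.

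**Figure D1:**
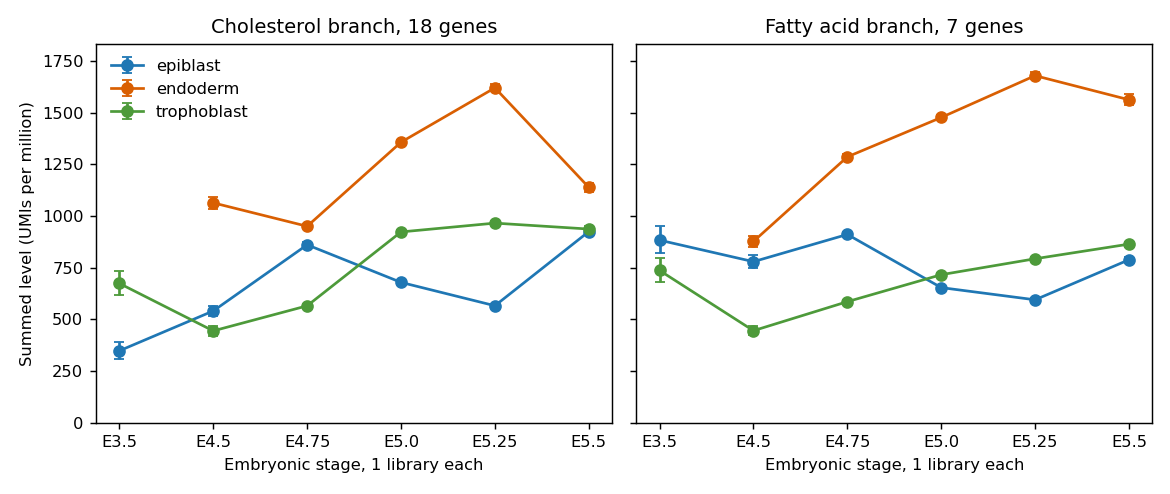
Summed level of the 18 cholesterol genes (left) and the 7 fatty acid genes (right), in CPM, by stage and lineage, with 1 library per stage and bars for 95% Poisson intervals. From E4.75 to E5.25 the cholesterol sum is lower in the epiblast (861 to 566) and higher in the endoderm (950 to 1619) and trophoblast (566 to 965).

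Gene by gene, a member was counted where it reached 10 CPM in either stage, and called where its level differed by 2-fold or more. Between E4.75 and E5.25, 17 cholesterol genes were measured in each lineage. In the epiblast all 17 had a log2 ratio below 0, against 62.4% of all 8492 genes measured, and 3 were called lower (Cyp51, Nsdhl and Ebp) against 7.52% of all genes. Their median log2 ratio was -0.48 (order-statistic interval -0.70 to -0.31), beside -0.10 over all genes. In the endoderm 3 of 17 lay below 0, against 52.3% of all genes, and 5 were called higher (Hmgcs1, Idi1, Fdft1, Msmo1 and Dhcr7), against 3.89%. None was called lower, against 1.96% of all genes. The endoderm median was 0.66 (0.30 to 0.97), beside -0.02 over all genes. In the trophoblast 2 of 17 lay below 0, against 62.9% of all genes, and 3 were called higher (Hmgcs1, Sc5d and Dhcr7), against 2.78%. The trophoblast median was 0.64 (0.43 to 0.75), beside -0.10 over all genes. The clusters that make up the endoderm differ between these stages, with clusters 14 and 12 holding most E4.75 cells and clusters 1, 2 and 9 most E5.25 cells. The trophoblast was likewise mostly cluster 15 at E4.75 and clusters 6, 7 and 13 at E5.25, and the epiblast cluster 10 and then clusters 3 and 4. Without the parietal endoderm-like and giant cell-like clusters the endoderm median was 0.52 and the trophoblast median 0.71.

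**Figure D2:**
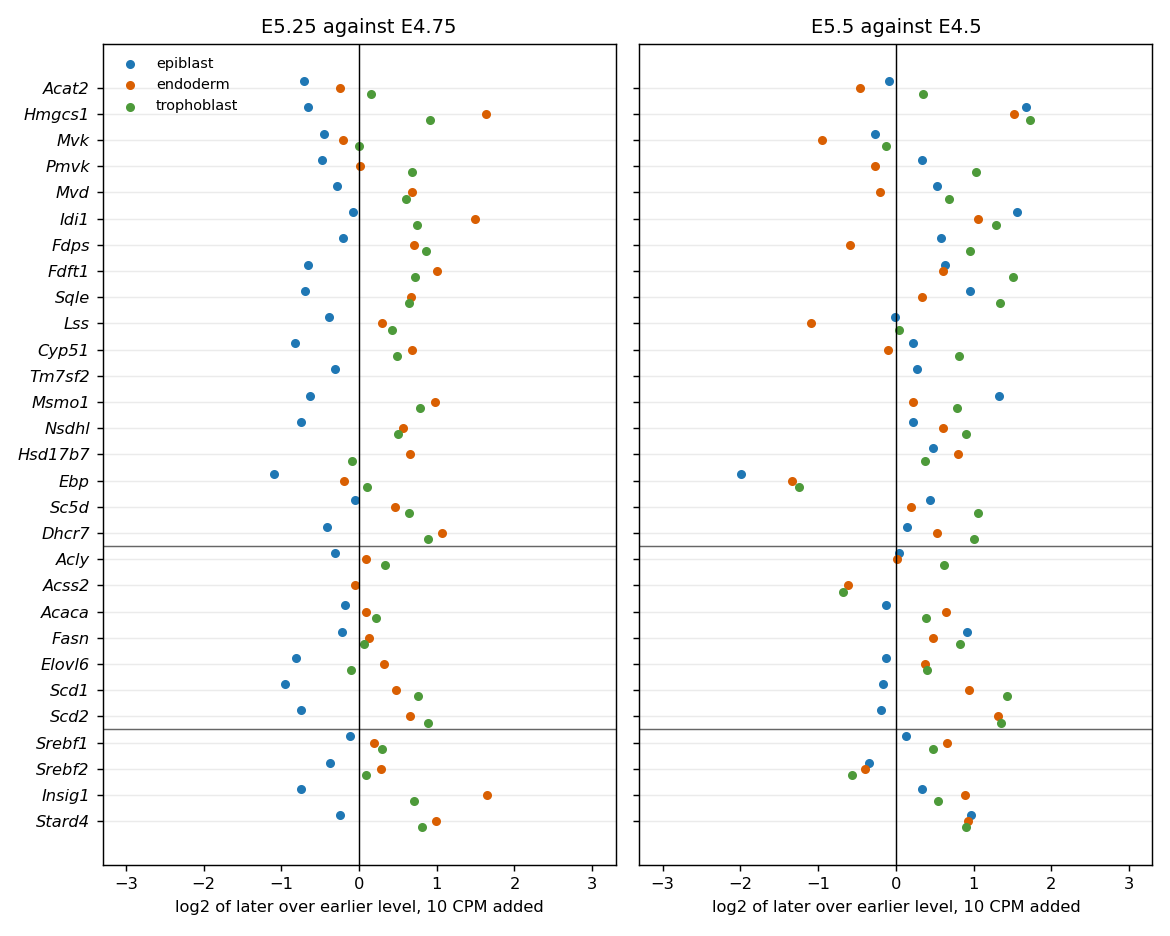
log2 ratio of each member's level in the later over the earlier stage, with 10 CPM added to both, for E5.25 against E4.75 (left) and E5.5 against E4.5 (right), with 1 point per lineage where the gene reached 10 CPM. Lines separate the cholesterol branch (top), the fatty acid branch and the regulators. On the left every measured cholesterol gene of the epiblast lies below 0, and 14 of 17 in the endoderm and 15 of 17 in the trophoblast lie above 0.

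The first steps lead from acetyl-CoA to mevalonate and its phosphates. Hmgcs1, which joins acetoacetyl-CoA and acetyl-CoA, stood at 29.01, 43.8, 124, 86.3, 75.3 and 161 CPM in the epiblast from E3.5 to E5.5. In the endoderm it stood at 61.4, 88.0, 210, 293 and 195 CPM from E4.5. In the trophoblast it stood at 47.0, 29.7, 49.3, 94.2, 102 and 121 CPM. The epiblast was thus the highest lineage for Hmgcs1 at E4.75 and the lowest at E5.25. The ratio of E5.25 to E4.75 was 3.33-fold in the endoderm (95% interval 3.19 to 3.47) and 2.06-fold in the trophoblast (1.92 to 2.21). The gene lies on chromosome 13 at 119690379 to 119708260 of GRCm38. Acat2, the cytosolic thiolase that makes acetoacetyl-CoA, ran at 29.01, 44.9, 57.4, 41.5, 31.2 and 41.7 CPM in the epiblast and at 133, 135, 110, 112 and 93.1 CPM in the endoderm. Its trophoblast levels were 57.9, 47.7, 54.6, 57.7, 61.6 and 63.8 CPM, so the endoderm was above the other lineages in all 5 libraries. A near copy, Acat3, lies beside Acat2, and how reads were shared between them is not given.

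The kinases and the decarboxylase of the mevalonate pathway come next. Pmvk, which adds the second phosphate, ran at 47.9, 21.4, 31.7, 26.3, 19.9 and 29.8 CPM in the epiblast and at 44.2, 43.4, 40.4, 44.0 and 35.1 CPM in the endoderm. In the trophoblast it stood at 66.3, 18.3, 26.8, 43.3, 48.8 and 47.8 CPM, with E3.5 above E4.5 as in the epiblast. Mvk, which adds the first phosphate, ranged from 5.05 to 13.5 CPM in the epiblast, 16.1 to 40.6 CPM in the endoderm and 9.89 to 18.1 CPM in the trophoblast. Its highest endoderm level was at E4.5 and its lowest at E5.5, against the course of the branch. Mvd, which makes isopentenyl diphosphate, ranged from 9.85 to 18.5 CPM in the epiblast, 20.4 to 38.7 CPM in the endoderm and 14.5 to 42.4 CPM in the trophoblast.

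Isoprenoid steps followed different orders of lineage. Idi1, the isomerase of isopentenyl diphosphate, ran at 30.3, 34.2, 81.2, 82.5, 76.3 and 120 CPM in the epiblast. Its endoderm levels were 36.0, 34.2, 84.4, 114 and 85.5 CPM, and its trophoblast levels 39.8, 31.3, 52.1, 104, 94.6 and 90.4 CPM. From E4.75 to E5.25 Idi1 was 3.34-fold higher in the endoderm (3.12 to 3.57), while the epiblast stayed within 76.3 to 82.5 CPM. Fdps, which makes farnesyl diphosphate at the branch point to sterols and to other isoprenoids, stood at 59.3, 108, 155, 164, 133 and 167 CPM in the epiblast. It stood at 127, 59.8, 80.9, 104 and 81.2 CPM in the endoderm and at 131, 75.2, 106, 177, 201 and 155 CPM in the trophoblast. For Fdps the endoderm was the lowest lineage from E4.75 on. It was 2-fold or more below the epiblast in 3 of 5 libraries.

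Squalene synthesis and closure of the ring came next. Fdft1, squalene synthase, ran at 16.4, 42.3, 77.8, 52.7, 45.9 and 71.1 CPM in the epiblast, and at 63.7, 55.5, 98.3, 122 and 102 CPM in the endoderm. Its trophoblast levels were 49.4, 14.2, 26.4, 49.0, 49.8 and 58.9 CPM, the lowest being at E4.5. The ratio of E4.5 to E3.5 in the trophoblast was 0.288 (0.185 to 0.4504) and rests on 41 UMIs at E3.5. Sqle, the squalene epoxidase, stood at 7.57, 45.8, 93.0, 69.8, 53.4 and 97.7 CPM in the epiblast, 44.4, 53.2, 88.0, 90.1 and 58.4 CPM in the endoderm and 37.4, 26.6, 41.9, 67.2, 70.8 and 82.3 CPM in the trophoblast. No lineage led for Sqle throughout, and endoderm and epiblast differed by less than 2-fold in each library. Lss, which closes the ring to lanosterol, ranged from 7.00 to 13.0 CPM in the epiblast, 16.6 to 46.9 CPM in the endoderm and 11.1 to 19.3 CPM in the trophoblast.

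The enzymes that trim lanosterol mostly shared the branch's course. Cyp51, the lanosterol demethylase, stood at 5.05, 36.8, 47.9, 23.9, 22.5 and 44.6 CPM in the epiblast, and at 101, 82.6, 111, 139 and 93.6 CPM in the endoderm. In the trophoblast it stood at 30.1, 22.0, 30.6, 46.8, 47.1 and 45.9 CPM. Endoderm exceeded trophoblast by 2-fold or more in all 5 libraries for Cyp51. Msmo1, the methylsterol oxidase, ran at 15.1, 19.7, 50.0, 36.2, 28.8 and 64.2 CPM in the epiblast, and at 74.2, 72.2, 135, 152 and 87.8 CPM in the endoderm. Its trophoblast levels were 35.0, 39.6, 46.3, 88.4, 87.1 and 75.4 CPM. The endoderm had its highest Msmo1 at E5.25 and the epiblast its highest at E5.5. Nsdhl, which removes the methyl carbon as carbon dioxide, ran at 8.83, 18.3, 28.6, 17.7, 13.0 and 22.9 CPM in the epiblast, 31.6, 41.8, 62.6, 66.4 and 53.2 CPM in the endoderm and 13.3, 16.4, 24.7, 38.5, 39.0 and 39.4 CPM in the trophoblast. Hsd17b7, the sterol ketoreductase, stood at 15.1, 5.22, 7.55, 7.46, 6.17 and 11.1 CPM in the epiblast. It was at 16.8, 29.1, 46.4, 51.7 and 36.6 CPM in the endoderm and at 4.82, 11.8, 16.9, 15.9, 15.4 and 18.3 CPM in the trophoblast. The endoderm was 2-fold or more above the epiblast in all 5 libraries for Hsd17b7. Tm7sf2, a sterol reductase, stayed at or under 10.8 CPM in all sums and at or under 3.18 CPM in the trophoblast.

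Ebp, the isomerase that moves the ring's double bond, went against most of the branch between E4.5 and E5.5 in the epiblast and trophoblast. In the endoderm it was among 8 of 17 cholesterol genes below 0 over that interval. From E4.75 to E5.25 it went with its branch in the epiblast. It stood at 42.9, 50.7, 23.5, 7.64, 5.67 and 5.21 CPM in the epiblast. In the endoderm it stood at 124, 89.2, 80.8, 76.9 and 42.9 CPM from E4.5, and in the trophoblast at 71.1, 43.7, 18.7, 21.1, 20.7 and 12.7 CPM. Each lineage therefore had less Ebp at E5.5 than at E4.5, with a ratio of E5.5 to E4.5 of 0.103 in the epiblast (0.0786 to 0.133), 0.346 in the endoderm (0.303 to 0.395) and 0.291 in the trophoblast (0.237 to 0.358). The last steps did not share this. Sc5d, the sterol desaturase, stood at 49.0, 54.1, 67.9, 78.8 and 57.3 CPM in the endoderm. It was at 2.52, 8.98, 10.7, 9.05, 10.0 and 15.7 CPM in the epiblast and at 6.03, 5.88, 10.6, 20.9, 22.0 and 23.1 CPM in the trophoblast. Dhcr7, which makes cholesterol in the final reduction of one route, ran at 35.8, 29.9, 54.1, 73.6 and 55.8 CPM in the endoderm. Its levels were 8.83, 18.3, 21.8, 16.6, 13.9 and 21.1 CPM in the epiblast and 30.1, 13.0, 12.7, 27.8, 32.2 and 36.0 CPM in the trophoblast. From E4.75 to E5.25 Dhcr7 was 2.47-fold higher in the endoderm (2.28 to 2.66) and 2.53-fold higher in the trophoblast (2.22 to 2.89).

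**Figure D3:**
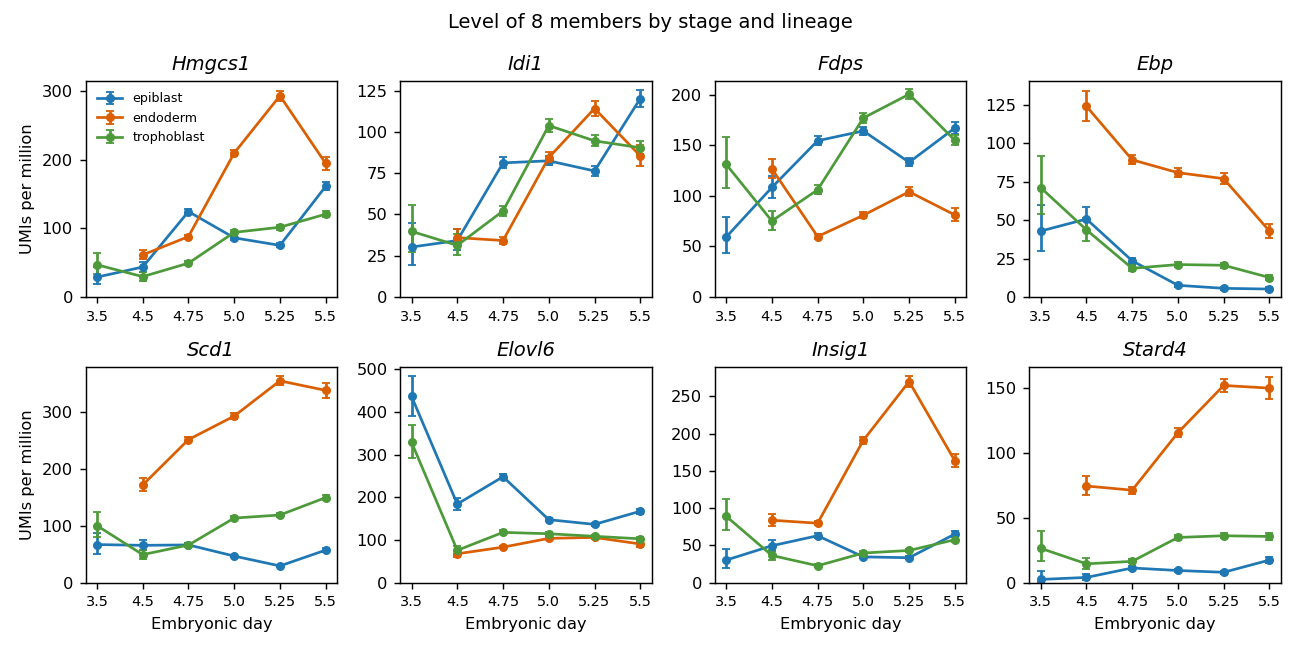
Level of 8 members in CPM by embryonic day and lineage, with 1 library per stage and bars for 95% Poisson intervals. Hmgcs1 in the endoderm goes from 88.0 at E4.75 to 293 at E5.25, Ebp is lower at E5.5 than at E4.5 in each lineage, Fdps is lowest in the endoderm from E4.75, and Stard4 is highest in the endoderm throughout.

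The fatty acid branch lay near the cholesterol branch in some intervals and apart from it in others. Its sum in the epiblast was 883, 779, 911, 654, 595 and 788 CPM from E3.5 to E5.5. In the endoderm it was 877, 1286, 1476, 1678 and 1562 CPM from E4.5, and in the trophoblast 736, 445, 586, 716, 793 and 864 CPM. From E4.75 to E5.25 the median log2 ratio was -0.53 (-0.95 to -0.18) in the epiblast over 6 measured genes, 0.13 (-0.05 to 0.66) in the endoderm over 7, and 0.28 (-0.11 to 0.89) in the trophoblast over 6. Scd1 was the only fatty acid gene called, at 0.444-fold in the epiblast (0.409 to 0.481), where 7.52% of all genes were called lower. In the endoderm 3.89% of all genes were called higher and 1.96% lower, and in the trophoblast 2.78% and 4.61%. At those shares few calls are due among 6 or 7 genes. The cholesterol median minus the fatty acid median was 0.05 in the epiblast, 0.54 in the endoderm and 0.36 in the trophoblast, a difference that could not be tested. Between E4.5 and E5.5 the order differed, with 0.52 in the epiblast, -0.28 in the endoderm and 0.29 in the trophoblast. The ratio of the cholesterol sum to the fatty acid sum went from 0.394 at E3.5 to 0.945 at E4.75 and 1.17 at E5.5 in the epiblast. In the endoderm the ratio was 1.21, 0.739, 0.919, 0.965 and 0.729 from E4.5 on.

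Scd2 took a large share of the fatty acid counts. Scd2, a desaturase that puts a double bond in saturated acyl chains, stood at 148, 256, 267, 169, 154 and 224 CPM in the epiblast, 241, 373, 531, 596 and 612 CPM in the endoderm and 108, 107, 134, 214, 256 and 289 CPM in the trophoblast. It made up 39.2% of the branch's counts in E5.5 endoderm and 16.7% in E3.5 epiblast. Its paralogue Scd1 stood at 66.8, 65.5, 66.2, 46.7, 29.4 and 57.1 CPM in the epiblast, 171, 251, 292, 354 and 337 CPM in the endoderm and 100, 49.2, 66.0, 113, 119 and 149 CPM in the trophoblast. Both Scd genes were 2-fold or more higher in endoderm than trophoblast in all 5 libraries. Reads common to the pair could have been counted for either. Elovl6, which lengthens palmitate, had its highest levels at E3.5, with 436, 184, 248, 148, 137 and 167 CPM in the epiblast and 329, 75.9, 118, 115, 109 and 103 CPM in the trophoblast. In the endoderm it stood at 67.7, 83.2, 104, 106 and 90.7 CPM, below the other lineages in all 5 libraries.

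The enzymes that supply and join the carbon units were highest in the endoderm. Acly, the citrate lyase, ran at 55.5, 92.4, 97.8, 87.2, 76.9 and 94.97 CPM in the epiblast, 110, 130, 131, 139 and 111 CPM in the endoderm and 63.9, 53.3, 59.7, 70.6, 77.6 and 87.1 CPM in the trophoblast. Acaca, the carboxylase that makes malonyl-CoA, ran at 115, 96.8, 97.1, 77.0, 84.4 and 88.0 CPM in the epiblast, 136, 234, 198, 251 and 219 CPM in the endoderm and 75.9, 84.2, 103, 95.1, 122 and 113 CPM in the trophoblast. Fasn, the synthase, ran at 58.0, 77.7, 132, 124, 111 and 155 CPM in the epiblast, 126, 196, 206, 215 and 178 CPM in the endoderm and 43.4, 61.9, 99.9, 103, 104 and 118 CPM in the trophoblast. For Acly, Acaca and Fasn the endoderm was the highest lineage in each library from E4.5. Acss2, which makes acetyl-CoA from acetate, ranged from 1.62 to 5.80 CPM in the epiblast and 12.8 to 25.1 CPM in the endoderm. In the trophoblast Acss2 was at 15.7 and 13.9 CPM at E3.5 and E4.5 and between 4.90 and 5.59 CPM later.

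The regulators and the sterol carrier set the endoderm apart. Insig1, which retains SREBP and is itself a target of it, stood at 30.3, 49.6, 63.0, 34.6, 33.5 and 65.2 CPM in the epiblast. It stood at 83.8, 79.8, 191, 270 and 163 CPM in the endoderm and at 89.2, 36.5, 22.7, 39.8, 43.2 and 57.6 CPM in the trophoblast. From E4.75 to E5.25 Insig1 was 3.38-fold higher in the endoderm (3.24 to 3.54), with an interval that overlaps those of Hmgcs1 and Idi1. Stard4, which carries sterol between membranes, stood at 2.52, 4.06, 11.3, 9.41, 8.02 and 17.5 CPM in the epiblast. In the endoderm it stood at 74.6, 71.4, 116, 152 and 150 CPM, and in the trophoblast at 26.5, 14.6, 16.5, 34.9, 36.2 and 35.7 CPM. The endoderm exceeded the epiblast in Stard4 by 6.29-fold to 19.0-fold over the 5 libraries. Srebf2, the factor best known for sterol genes, ran at 83.2, 89.0, 74.3, 59.1, 54.8 and 68.0 CPM in the epiblast, 160, 118, 124, 146 and 119 CPM in the endoderm and 137, 139, 89.8, 89.3, 96.1 and 90.9 CPM in the trophoblast. Srebf1, best known for fatty acid genes, ran at 39.1, 18.8, 15.3, 14.5, 13.4 and 21.6 CPM in the epiblast, 28.5, 37.6, 45.4, 44.5 and 50.6 CPM in the endoderm and 21.7, 16.1, 16.1, 21.6, 22.2 and 26.2 CPM in the trophoblast. Neither transcript differed by 2-fold between E4.75 and E5.25 in any lineage.

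Lineages within a library share their collection and filter. The median log2 ratio of the cholesterol genes in endoderm over epiblast was 0.82, 0.39, 1.19, 1.57 and 0.43 from E4.5 to E5.5, beside 0.04 to 0.26 over all genes. The interval at E4.75, -0.42 to 0.73, held 0. At E5.25, 14 of 17 measured cholesterol genes were called higher in the endoderm, against 30.9% of all genes, and at E5.5, 7 of 18 were, against 27.9%. Acat2, Ebp, Hsd17b7, Sc5d, Scd1, Acss2 and Stard4 were 2-fold or more higher in endoderm than epiblast in all 5 libraries, as were 16.1% of all genes. Against the trophoblast these were Cyp51, Ebp, Sc5d, Scd1, Scd2, Insig1 and Stard4, beside 13.3% of all genes. Trophoblast against epiblast changed sign, with medians of 0.77 (0.31 to 1.09) at E3.5, -0.13 (-0.47 to 0.20) at E4.5 and -0.20 (-0.55 to -0.07) at E4.75. Later medians were 0.51 and 0.74 at E5.0 and E5.25, and 0.24 (-0.22 to 0.54) at E5.5. The intervals at E4.5 and E5.5 held 0. As spreads between genes, these intervals do not test a difference between lineages. At E5.25, 10 of 17 cholesterol genes were called higher in the trophoblast than in the epiblast, against 14.0% of all genes. In the same epiblast sums, uterine epithelium markers stood at 44.1 to 126 CPM, against 256 to 396 CPM in the trophoblast, and their part in these values was not tested. Barcodes under 1500 genes in the E5.5 library held 1028 CPM of the cholesterol branch and 64.4 CPM of Stard4, which is above the 17.5 CPM of the E5.5 epiblast.

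The endoderm and trophoblast were not uniform, and the clusters compared here were chosen after their values were seen. Cluster 1 (led by Apoc2, Apoa1, Ttr and Cubn) had a cholesterol sum of 2229, 2364 and 1563 CPM at E5.0, E5.25 and E5.5. Cluster 2 (led by Apoa1, Apob and Ttr, with Lhx1) had 1093, 1192 and 1010 CPM, and the parietal endoderm-like cluster 9 had 334, 388 and 506 CPM. Other parietal endoderm-like clusters were not as low, with 1090, 1408 and 909 CPM in cluster 12 and 846 CPM in cluster 19 at E5.5. The fatty acid sum was 979, 1127 and 1256 CPM in cluster 9 and 1250, 1327 and 1403 CPM in cluster 2. Without Scd2 it was 453, 573 and 629 CPM in cluster 9, 839, 855 and 803 CPM in cluster 2 and 1302, 1428 and 1227 CPM in cluster 1. The median log2 ratio of cluster 9 over cluster 2 at E5.25 was -1.12 for the cholesterol branch and -0.39 for the fatty acid branch, and 13 of 17 cholesterol genes were called lower, against 13.4% of all genes. Against cluster 1 all 18 were called lower at E5.25, against 12.8% of all genes.

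Single members parted within cluster 9. At E5.25 Msmo1 stood at 14.3 CPM there, 111 CPM in cluster 2 and 228 CPM in cluster 1. Fdps stood at 13.1, 76.2 and 157 CPM in the same order. Insig1, in contrast, stood at 305 CPM in cluster 9, 85.0 CPM in cluster 2 and 399 CPM in cluster 1, and Scd2 at 554, 471 and 708 CPM. Insig1 in cluster 9 was 2.35-fold, 3.59-fold and 2.97-fold above cluster 2 at E5.0, E5.25 and E5.5. Cluster 1 exceeded cluster 2 in 12 of 18 cholesterol genes by 2-fold or more at E5.25, against 3.46% of all genes. At E5.5 this held for 3 of 18, against 4.90%.

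**Figure D4:**
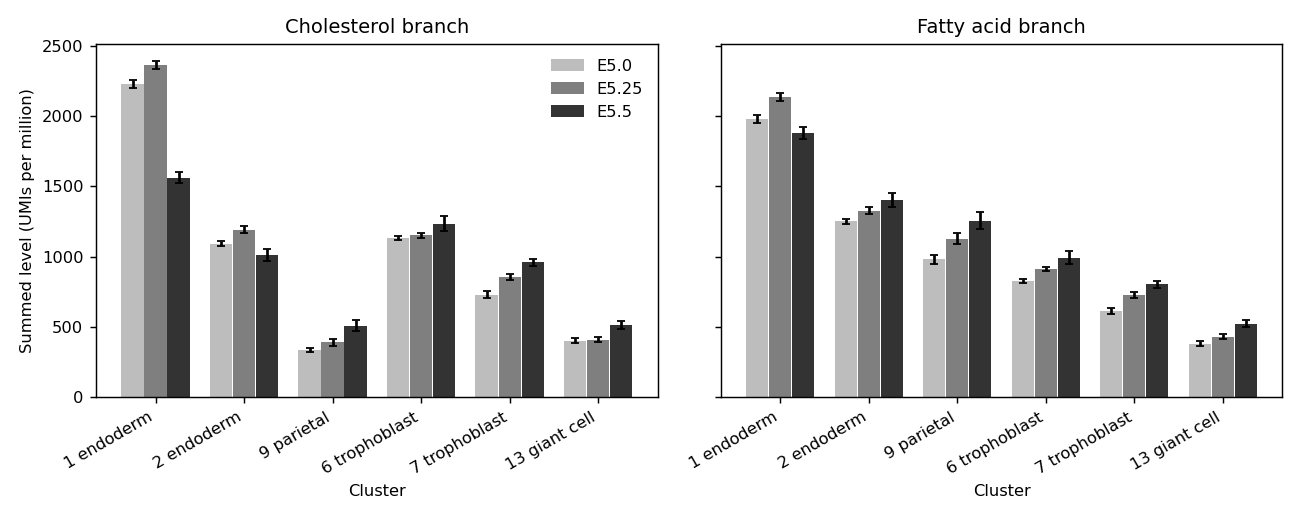
Summed level of the cholesterol branch (left) and fatty acid branch (right) in 6 clusters at E5.0, E5.25 and E5.5, in CPM, with 95% Poisson intervals. Cluster 9 lies below clusters 1 and 2 in both branches, at 334 to 506 for cholesterol and 979 to 1256 for fatty acids, and cluster 13 is the lowest of the trophoblast clusters shown.

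Among trophoblast clusters, the giant cell-like cluster 13 (led by Prl3d1, Prl3d2 and Prl3d3) had cholesterol sums of 401, 408 and 512 CPM and fatty acid sums of 380, 429 and 523 CPM at E5.0, E5.25 and E5.5. Cluster 6 (led by Elf5) had cholesterol sums of 1133, 1150 and 1233 CPM and fatty acid sums of 825, 912 and 992 CPM. At E5.25, 14 of 17 cholesterol genes were called lower in cluster 13 than in cluster 6, against 9.09% of all genes. Elovl6 differed most of the fatty acid genes, at 19.3 CPM in cluster 13 and 148 CPM in cluster 6. Scd2 stood at 81.0 and 317 CPM.

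Over the longest interval, E4.5 to E5.5, both libraries were filtered but collection differed. In the trophoblast 10 of 17 cholesterol genes were called higher and 1 lower (Ebp), against 12.6% and 12.8% of all genes, with a median log2 ratio of 0.90 (0.38 to 1.06). In the epiblast 5 of 18 were called higher (Hmgcs1, Idi1, Sqle, Msmo1 and Hsd17b7) and 1 lower (Ebp), against 13.0% and 18.0%. There Hsd17b7 passed the level filter only through E5.5, and Ebp only through E4.5. The epiblast median of 0.39 (0.14 to 0.63) was 0.037 when E4.75 took the place of E4.5. In the endoderm 3 were called higher (Hmgcs1, Idi1 and Hsd17b7) and 3 lower (Mvk, Lss and Ebp), against 16.5% and 11.0%, with a median of 0.19 (-0.47 to 0.60). From E4.5 to E4.75 the epiblast median was 0.31 (0.17 to 0.75), the endoderm -0.06 (-0.26 to 0.12) and the trophoblast 0.35 (0.16 to 0.45). In that step 4 epiblast cholesterol genes were called higher (Hmgcs1, Idi1, Sqle and Msmo1), against 6.28% of all genes, and Ebp was called lower, against 10.2%. Fdps was called lower in the endoderm, against 7.78%, and Ebp and Acss2 in the trophoblast, against 9.39%.

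The change between E4.75 and E5.25 can be split at E5.0. The cholesterol median from E4.75 to E5.0 was -0.33 in the epiblast, 0.49 in the endoderm and 0.57 in the trophoblast, and from E5.0 to E5.25 it was -0.23, 0.19 and 0.02. From E4.75 to E5.0, Hmgcs1, Idi1 and Insig1 were called higher in the endoderm, against 1.77% of all genes. Dhcr7 and Stard4 were called higher in the trophoblast, against 1.59%, and Cyp51 and Ebp lower in the epiblast, against 4.58%. From E5.0 to E5.25 no member was called in any lineage. In the endoderm 26 of 28 measured members lay above 0, while 44.8% of all genes lay below 0. In the epiblast 20 of 22 lay below 0, against 49.8% of all genes. Of all genes, 0.0249%, 0.414% and 0.0259% were called higher in epiblast, endoderm and trophoblast, and 0.349%, 0.0920% and 0.324% lower. In the earliest step, E3.5 to E4.5, 6 cholesterol genes were called higher in the epiblast (Mvk, Fdft1, Sqle, Cyp51, Nsdhl and Dhcr7), against 16.4% of all genes. Pmvk, Hsd17b7, Elovl6 and Srebf1 were called lower there, against 18.2%. In the trophoblast Hsd17b7 was called higher, against 14.7%, and Pmvk, Fdft1, Dhcr7, Elovl6, Scd1 and Insig1 lower, against 14.9%. Hsd17b7 passed the level filter only through E4.5 in the trophoblast and only through E3.5 in the epiblast. These E3.5 values come from 44 epiblast and 42 trophoblast cells.

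In the last step, E5.25 to E5.5, epiblast and endoderm had opposite signs. In the epiblast all 16 measured cholesterol genes had a log2 ratio above 0, while 39.3% of all measured genes had a log2 ratio below 0. Within this step, Hsd17b7, Tm7sf2, Lss and Mvd reached 10 CPM in the epiblast only at E5.5, so they were counted through the stage where they were higher. Ebp was under 10 CPM at both stages and was not counted. Hmgcs1 and Msmo1 were called higher, against 0.706% of all genes. In the endoderm all 17 measured were lower, against 46.7% of all genes, with a median log2 ratio of -0.40 (-0.57 to -0.32), and none was called, against 0.170% of all genes. The trophoblast median was -0.03 (-0.09 to 0.12). The filter and the depth changed with this step, and their part was not tested. With cells thinned to 5000 UMIs, Hmgcs1 in the epiblast went from 72.3 to 159 CPM in this step, and in the endoderm from 284 to 189 CPM. The thinning left out 958 of 2441 epiblast cells and 1063 of 1674 endoderm cells of E5.5. The share of cells with a Hmgcs1 UMI in the epiblast was 28.6% and 51.4% after thinning, and 74.0% and 59.0% before it.

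Other lipid genes were read from fixed lists. Between E4.75 and E5.25, 2.31% of all genes were called higher and 7.52% lower in the epiblast, and 3.89% and 1.96% in the endoderm. With those shares few calls are due among short lists, and none of 4 other genes of the SREBP machinery was called in any lineage. Of 7 genes of fatty acid oxidation, Cpt1a, which admits acyl chains to mitochondria, was called lower in the epiblast and endoderm over the same stages. Between E4.5 and E5.5 Cpt1a went from 47.8 to 4.26 CPM in the epiblast and from 39.6 to 3.41 CPM in the endoderm.

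The shared course can be described over the 17 sums of lineage and stage, which share libraries and clusters. The mean of the cholesterol genes and that of the fatty acid genes had a Pearson r of 0.88. Within the cholesterol branch Cyp51 (0.96), Dhcr7 (0.94), Nsdhl, Sc5d and Msmo1 (each 0.93) were closest to the branch mean, and Fdps (0.00) and Ebp (0.31) farthest. Stard4 stood at 0.93 and Insig1 at 0.84 with the cholesterol mean, while Elovl6 stood at -0.54. From E4.75 to E5.5 the highest level was at least 2-fold over the lowest for 7 of 28 measured members in the epiblast, 8 of 28 in the endoderm and 8 of 27 in the trophoblast, against 15.2%, 10.4% and 12.1% of all genes. Within these stages 14 of 17 cholesterol genes were highest at E5.25 in the endoderm, and 15 of 18 were lowest there in the epiblast. The share of all genes highest or lowest at E5.25 was not computed, so these counts have no background.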

How the data were processed

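The authors deposited raw UMI counts per gene and cell for 6 droplet libraries of 10x Chromium Single Cell 3′ chemistry. Per the file headers, they came from Cell Ranger 7.1.0. Builds listed by the submitters' processing notes are GRCm38, mm10 and hg38, with no role stated for hg38. No source used here says whether counting used strand. Acaca, Acss2, Cyp51, Elovl6, Fdft1, Hmgcs1, Lss and Srebf1 overlap a counted gene on the opposite strand, and Tm7sf2 overlaps Vps51 on its own strand.

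Cells with at least 1500 genes and at most 15% mitochondrial counts were kept. The highest doublet scores were removed, at 0.8% per 1000 cells and at most 8% of a library (Scrublet in scanpy 1.11.5). Clustering used 2000 variable genes, of which 4 are members, 30 principal components, 15 neighbours and Leiden resolution 1 (leidenalg 0.10.2), and gave 26 clusters. Each cluster was named for its best-scoring marker list, provided that 3 of its markers were at 2-fold or more. It was called mixed and left out where a second unrelated score reached 0.45 of the best, a limit set with earlier results known. Parietal endoderm-like and giant cell-like clusters were merged into endoderm and trophoblast after the clusters were seen. Most cells of a lineage came from different clusters at different stages.

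Counts were summed per library and lineage, for at least 30 cells, and divided by the summed total to give CPM. Log2 ratios had 10 CPM added to both levels. Intervals are 95% exact Poisson for levels, exact conditional binomial for ratios and order-statistic for medians. The calculations were tested on simulated data. With 1 library per stage there was no test. The members and gene lists were chosen with earlier results of these data known. All 29 members are named, with values in every library for those reaching 50 CPM in any lineage, and other genes are named where they differed by 2-fold. A total of 16 alternatives were planned and 2 added after seeing the data.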

Additional observations from a re-analysis of the deposited data

Results flagged for a closer look

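The median log2 ratio of the cholesterol genes between E4.75 and E5.25 had opposite signs in different lineages. It was 0.66 in the endoderm and -0.48 in the epiblast, and 0.64 in the trophoblast against the same -0.48. Each lineage was 1 summed sample per stage, so the difference between lineages was not tested.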

How the results depend on the processing

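Of 567 recomputed medians, 554 stayed within the interval of the reported value, 12 moved out of it and 1, whose interval excluded 0, reversed. Among the 554, 3 endoderm medians whose intervals held 0 changed sign: cholesterol E5.5 over E4.5 (-0.09 with mitochondrial and ribosomal protein genes left out), fatty acid E5.5 over E4.5 (-0.09 with E4.75 as the earlier stage) and cholesterol E4.75 over E4.5 (0.10 without parietal and giant cell clusters). The epiblast cholesterol median of E5.5 over E4.5 was 0.037 with E4.75 as the earlier stage. The epiblast fatty acid median of that comparison was -0.20 with at least 2500 genes per cell and -0.19 with mitochondrial and ribosomal protein genes left out of the total. With the latter the epiblast fatty acid median of E4.75 over E4.5 reversed to -0.031. With a pseudocount of 1 CPM, the cholesterol medians of E5.25 over E4.75 were -0.72 in the epiblast and 0.76 in the trophoblast, and that of E4.75 over E4.5 in the trophoblast was 0.49. The same pseudocount gave 1.26 and 1.95 for endoderm over epiblast at E4.5 and E5.25, and 1.06 for trophoblast over epiblast at E5.25. Thinning to 5000 UMIs gave 0.16 for the trophoblast from E4.5 to E4.75. Endoderm over trophoblast at E4.75 was 0.48 with median-of-ratios scaling and 0.92 without parietal and giant cell clusters. The cause was not tested. The cholesterol medians of E5.25 over E4.75 ranged from 0.52 to 0.75 in the endoderm, -0.72 to -0.42 in the epiblast and 0.60 to 0.76 in the trophoblast. Log2 ratios of members called between E4.75 and E5.25, and of Ebp and Hmgcs1 where called between E4.5 and E5.5, were also recomputed. Of these, 307 stayed within the counting interval of the reported value and 49 moved out of it. No paired analysis was possible because each stage has 1 library, and no replicate could be left out.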

Other observations

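Among other lipid genes between E4.75 and E5.25, Vldlr and Lipa, which take up lipoproteins and split their lipids, were at least 2-fold higher in the endoderm, against 3.89% of all genes. Lrp2, an endocytic receptor, was at least 2-fold lower in the endoderm, against 1.96%, and in the trophoblast, against 4.61%. Cubn, of the same list, was at least 2-fold lower in the epiblast, against 7.52%, and in the trophoblast. Fads2, a desaturase of polyunsaturated fatty acids, was called lower in the epiblast, against 7.52%, and higher in the trophoblast, against 2.78%. Barcodes under 1500 genes, which entered no comparison, held 185 CPM of the cholesterol branch at E4.75 and 1028 CPM at E5.5.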
